A study of Mus musculus with 32 samples.

Results

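Peripheral blood of sham-irradiated mice lacking the kinase ATM was compared with that of sham-irradiated wild-type mice, across all genes detected on Agilent 1-colour microarrays. The comparison takes every sample whose title gives ATM-KO or WT with a dose of 0 Gy, which is 11 of the 32 arrays of the series. Of these, 5 arrays hold blood of male C57BL/6 mice with the genotype ATM-/- (Atm) and 6 hold blood of male C57BL/6 wild-type mice (WT). Each array is 1 mouse, sacrificed 24 hours after the sham exposure, with blood drawn from the heart into a stabilising solution and the RNA depleted of globin transcripts. The labels name neither the Atm allele nor the age of the mice. The other arrays of the series enter the filter on dim probes and the spread of each gene, which the main test takes from all 32 arrays. Values of unirradiated Scid mice (n = 5), Atm mice given 4 Gy (n = 6) and WT mice given 8 Gy (n = 5) are also set side by side. Scid mice given 3 Gy (n = 5) enter only through the filter and the spread.

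ATM is a protein kinase that is recruited to DNA double-strand breaks, where it phosphorylates histone H2AX, CHK2 and p53 and so links a break to repair, cell cycle arrest or death. It also acts when developing lymphocytes cut and rejoin their antigen receptor genes. Mice without it are viable but sensitive to radiation, make fewer mature T cells and tend to develop thymic lymphoma. Whole blood mixes transcripts of lymphocytes, monocytes, neutrophils, platelets and reticulocytes, so that fewer cells of a type and less RNA per cell cannot be told apart in any value given here.

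Levels are log2 processed signals relative to the 75th percentile of their own array, and a difference is the Atm mean less the WT mean on that scale, so that 1 is a doubling. The array carries Atm probes at 2 positions on the minus strand of chromosome 9 (build mm9). Since the allele is not named, whether either probe lies in its altered part is not known. The probe at chr9:53256167-53256226 is shown as 1 of the 2 readouts of the targeted gene:

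Atm probe: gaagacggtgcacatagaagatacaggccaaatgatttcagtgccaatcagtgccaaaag

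This probe was not well above background on any of the 32 arrays, at -2.97 ± 0.72 (SD, n = 6) in WT and -3.27 ± 0.49 (SD, n = 5) in Atm blood. The Atm probe at chr9:53245871-53245930 was well above background on 1 WT array and on no Atm array, at -3.27 ± 0.62 (SD, n = 6) in WT and -4.02 ± 0.26 (SD, n = 5) in Atm blood. With nearly all of these values at background, the arrays gave no firm check of the genotype labels through the targeted gene. Several partners of ATM were likewise too dim to be tested: the probe of Trp53, which encodes p53, was well above background on 3 WT and 2 Atm arrays, those of Chek2 and Mre11a on 1 and 1, and that of Nbn on none.

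Signal over background takes the place of depth on an array. The share of probes well above background ran from 28.2 to 53.5% in WT (median 39.9%) and from 36.6 to 43.4% in Atm blood (median 41.6%). The WT arrays spread more widely than the Atm arrays: the median gene had an SD of 0.74 within WT and 0.48 within Atm. Defining markers of T cells, NK cells, monocytes, neutrophils, platelets and red cells were detected in both groups. Several WT libraries stood apart in cell type content. The libraries labelled WT 3 and WT 6 had 1 and 2 of the 4 B cell markers well above background, against 4 of 4 on every other WT and Atm array. WT 3 and WT 6 also had the lowest shares of probes well above background, 34.2 and 28.2%, and WT 4 followed at 34.8%. Unirradiated Scid arrays had 1 or 2 of the 4 B cell markers, except that labelled Scid 4, which had all 4. No array was moved between groups, and results that rest on WT 3 and WT 6 are given with and without them. Liver transcripts were bright on WT 2, WT 4, WT 5 and Atm 2, and heart muscle transcripts on WT 3 and WT 5.

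No gene passed the test between Atm and WT blood. Of 15162 genes tested with limma, 0 (0%) had an adjusted p under 0.05 after Benjamini-Hochberg adjustment, and the smallest adjusted p was 0.9996. At an unadjusted p under 0.05 there were 342 genes (2.26%), of which 248 were higher in Atm (1.64%) and 94 were lower (0.62%). A gene was tested if at least 4 arrays of 1 or more of the 6 groups had it well above background. Of the 248, 32 met this through the unirradiated Atm arrays alone, which favours a higher Atm level, and none of the 94 met it through the unirradiated WT arrays alone. The median difference over all genes was -0.01, with 7394 genes (48.8%) higher in Atm on the mean. The smallest unadjusted p was 0.00172, for Asb2, which encodes an ankyrin repeat and SOCS box protein. None of the genes named below passed this test. Scaling to spike-in probes raised the median over all genes to 0.24, and with it the medians of the T cell, memory T cell, platelet, erythroid, globin, histone and neutrophil granule lists were above 0 and not below it. Every other direction given for a list below was the same under the 4 scalings tried, except where it is near 0.

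The data leave room for sizeable differences at many genes. The median standard error (SE) was 0.45, which gives a 95% interval of the median gene reaching 0.91 to either side of its estimate. The interval lay wholly within a doubling or halving, from -1 to 1, for 4507 genes (29.7%). Estimates beyond that size were found for 555 genes, 282 higher and 273 lower in Atm. The choice of arrays in the fit changed the call of 1 gene: fitted on the 11 arrays of the 2 groups only, 1810046K07Rik on chromosome 9 was called (adjusted p = 0.0316 from limma). This gene was among those tested only because all 5 unirradiated Atm arrays had it well above background, against 0 to 3 arrays in every other group, so that its difference is given as a description.

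**Figure D1:**
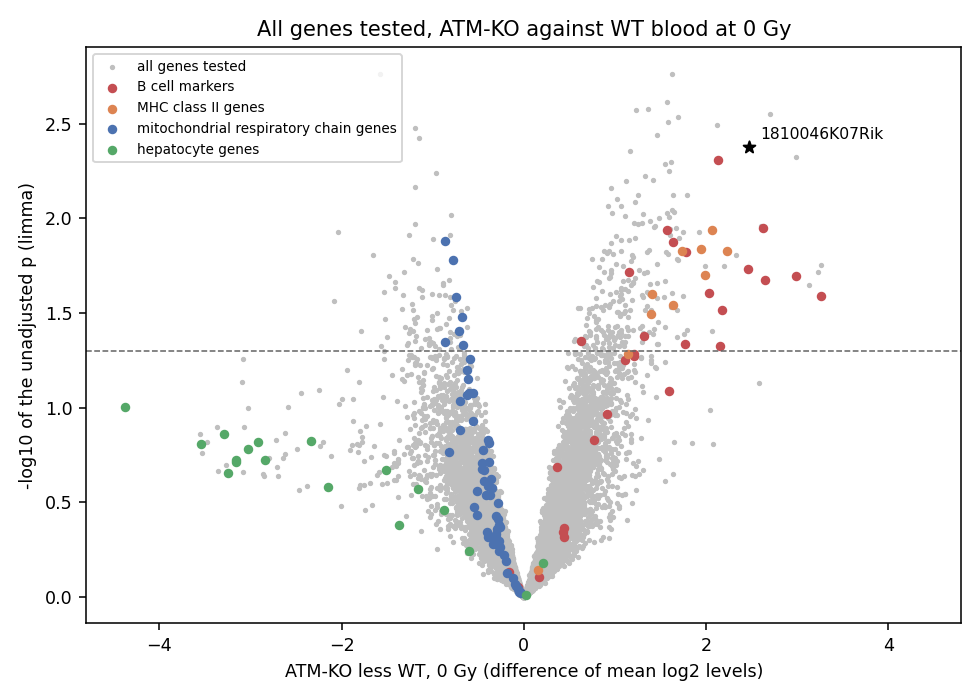
Each point is 1 of 15162 genes, placed by its Atm less WT difference (log2, x axis) and the -log10 of its unadjusted limma p (y axis), with members of gene lists coloured and the dashed line at an unadjusted p of 0.05. Genes above the line number 248 on the right and 94 on the left, B cell and MHC class II members lie on the right, mitochondrial genes lie left of 0, and none has an adjusted p under 0.05.

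Genes of the DNA damage response came first, since ATM acts there. Of 42 listed genes of double-strand break signalling and repair, 27 were bright enough to be tested. Of these 27, 20 were higher in Atm on the mean, none had an unadjusted p under 0.05, and the median difference was 0.16 (-0.01 over all genes), or 0.10 without WT 3 and WT 6. Rad50, the ATPase of the MRE11 complex that brings ATM to breaks, was at -0.68, -0.48, -1.42, -1.27, -1.16 and -2.40 in WT and at -0.81, -0.85, -1.31, -0.78 and -0.71 in Atm blood. The groups overlapped, with a difference of 0.35 (SE 0.33). H2ax, the histone variant that ATM phosphorylates, differed by -0.19 (SE 0.44), and Kat5, the acetyltransferase that activates ATM, by 0.06 (SE 0.34).

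The transcripts of p53 targets gave a similar picture. Of 40 listed targets 36 were tested, with 23 higher in Atm and a median difference of 0.21. Cdkn1a, the cell cycle inhibitor p21, was at -1.97, -1.23, -0.85, -2.38, -1.54 and -1.77 in WT and at -1.43, -0.17, -0.61, -0.37 and -0.75 in Atm blood. Atm 1 lay among the WT arrays, the 4 other Atm arrays lay above all of them, and the difference was 0.96 (SE 0.51, 95% interval -0.08 to 2.01). Over the alternatives in processing and arrays this difference ran from 0.18 to 1.22. Mdm2, the ubiquitin ligase that degrades p53, was at 1.77 to 2.51 in WT (median 1.94) and at 2.55, 2.34, 2.34, 2.23 and 1.92 in Atm, a difference of 0.21 (SE 0.37). Only 2 of the 36 had an unadjusted p under 0.05, both higher in Atm: Pmaip1, the pro-apoptotic BCL2 family member NOXA, and Pltp, a phospholipid transfer protein. Pmaip1, chosen after its values were seen, was at -1.05, -0.19, -0.19, -1.44, -1.06 and -2.98 in WT and at 0.93, 0.72, -0.55, 0.39 and 0.66 in Atm. All but Atm 3 lay above the WT range, with a difference of 1.58 (SE 0.49, unadjusted p = 0.00308 from limma), and 1.37 without WT 3 and WT 6. The alternatives gave 0.48 to 1.85.

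Among the blood cell lists, B lymphocyte transcripts differed most, and the size of the difference rested on WT 3 and WT 6. All 5 Atm arrays held B cell transcripts at a high level, while only 4 of the 6 WT arrays did. Of 30 tested B cell markers 27 were higher in Atm, 16 of them at an unadjusted p under 0.05 (against 1.64% of all genes) and none at an adjusted one. The median difference was 1.26. The array medians of the list were 1.09, 1.96, -1.65, 0.51, 1.09 and -1.51 in WT and 1.54, 1.77, 1.49, 2.17 and 1.84 in Atm blood. WT 3 and WT 6 lay far below, WT 2 lay inside the Atm range, and the Atm arrays kept within a narrow band. Without WT 3 and WT 6, 27 of the 30 members were still higher in Atm, at a median of 0.46 and with none at an unadjusted p under 0.05.

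Single B cell genes showed the same split. Cd79b, a signalling chain of the B cell receptor, was at 4.76, 6.37, -2.38, 4.03, 5.09 and -2.81 in WT and at 5.35, 5.97, 5.09, 6.49 and 5.96 in Atm. WT 2 lay inside the Atm range, WT 5 at its lower edge and the other WT arrays below it, and the difference of 3.26 (SE 1.39, 95% interval 0.42 to 6.10) was 0.71 without those libraries (-1.66 to 3.08). Ms4a1, which encodes the B cell surface antigen CD20, was at 3.34, 4.72, -3.25, 0.59, 3.46 and -2.71 in WT and at 4.14, 4.31, 3.71, 4.34 and 3.59 in Atm. WT 4 was low here as well, and the difference went from 2.99 (SE 1.22) to 0.99 (SE 1.11) without WT 3 and WT 6. On the slides that held an array of each group, the median list difference was 0.45 on the slide of Atm 1 and WT 1 and -0.27 on that of Atm 2 and WT 2. It was 3.72 and 2.85 on the slides that held WT 3 and WT 6.

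MHC class II genes, whose products present antigen on B cells and other antigen-presenting cells, moved with the B cell list. All 10 tested genes were higher in Atm, 8 at an unadjusted p under 0.05, with a median of 1.68. H2-Ab1, a class II beta chain, was at 5.63, 7.66, 3.29, 5.07, 6.16 and 0.83 in WT and at 6.33, 7.16, 5.80, 7.11 and 7.40 in Atm. WT 3 and WT 6 were again lowest and WT 2 highest of all 11 arrays. Its difference of 1.99 (SE 0.81) was 0.63 (SE 0.69) without WT 3 and WT 6, and the list median was then 0.59, with 10 of 10 genes higher and none at an unadjusted p under 0.05. With normexp background correction the medians of the B cell and class II lists were 0.18 and 0.28 on all 11 arrays.

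**Figure D2:**
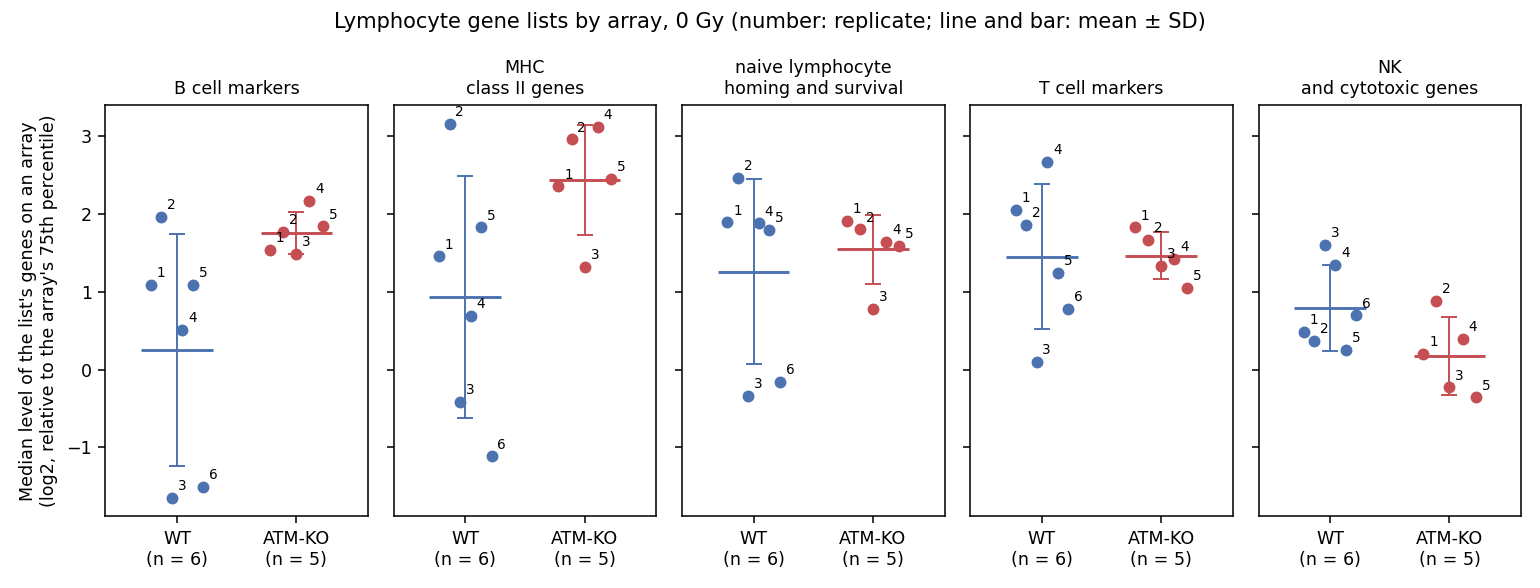
Each point is the median level (log2 relative to the 75th percentile of the array) of 1 gene list on 1 array, by group, with bars for the mean ± SD of the 6 WT and 5 Atm arrays. For B cell markers WT 3 and WT 6 sit at -1.65 and -1.51 and the Atm arrays between 1.49 and 2.17, while for T cell and NK lists the groups overlap.

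T cell transcripts were of interest because ATM loss is known to lower T cell numbers. The T cell list had a median near 0: 13 of 29 tested markers were higher in Atm, none had an unadjusted p under 0.05, and the median was -0.01. Cd3e, a chain of the T cell receptor complex, was at 3.94, 4.12, 4.05, 5.41, 3.57 and 3.95 in WT and at 3.60, 4.27, 4.08, 4.07 and 3.97 in Atm. The Atm arrays fell inside the WT range, and the difference was -0.18 (SE 0.37, 95% interval -0.93 to 0.58). Cd4, the helper T cell coreceptor, was at 5.08, 4.42, 4.89, 5.19, 6.55 and 6.08 in WT and at 4.28, 4.47, 5.00, 4.83 and 5.64 in Atm. The groups overlapped with a difference of -0.52 (SE 0.40).

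WT 3 and WT 6 were also low for part of the T cell list. Well above background were 5 and 4 of the 7 defining T cell markers there, against 7 of 7 on the other 9 arrays. Cd3d, another T cell receptor chain, was at -1.91 and -2.01 on these arrays, against 2.68 to 3.66 on the 4 other WT arrays and 2.34 to 3.18 in Atm. Cd8a, the coreceptor of cytotoxic T cells, was at 0.10, -0.51, -2.97, -0.93, -0.83 and -2.67 in WT and at -0.43, -0.50, -0.63, -0.57 and -0.91 in Atm. Its difference of 0.70 (SE 0.50) was -0.06 (SE 0.46) without WT 3 and WT 6. With these left out, 6 of 29 T cell markers were higher in Atm and the median was -0.40, still with none at an unadjusted p under 0.05.

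Genes of naive lymphocyte homing and survival followed the same arrays. Of 17 tested, 14 were higher in Atm, 3 at an unadjusted p under 0.05 (Ccr7 and Cxcr5 among them), with a median of 0.77. Ccr7, the receptor that guides naive lymphocytes into lymph nodes, was at 4.11, 4.99, -0.27, 3.84, 4.02 and -1.24 in WT and at 4.48, 4.22, 3.32, 4.66 and 5.18 in Atm. The difference of 1.80 (SE 0.83) was 0.13 (SE 0.63) without WT 3 and WT 6. Without them the list median was -0.02, with 8 of 17 higher.

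Most cytotoxic and memory lymphocyte transcripts lay lower in Atm blood on the mean. Of 27 tested NK and cytotoxic genes, 26 were lower in Atm, none at an unadjusted p under 0.05, with a median of -0.42. Klrb1c, the NK cell receptor NK1.1, was at 0.11, 0.37, 1.59, 1.46, 0.53 and 0.59 in WT and at -1.32, 0.52, -0.48, 0.29 and -0.23 in Atm. Atm 2 and Atm 4 lay within the WT range and the difference was -1.02 (SE 0.51, 95% interval -2.06 to 0.02). Gzma, a granzyme of killer cells, differed by -0.52 (SE 0.68) and Klrd1, the NK receptor chain CD94, by -0.68 (SE 0.48). WT 3 held the highest list median, 1.6, and without WT 3 and WT 6 the median difference was -0.13 with 10 of 27 genes higher. Of 18 memory and activated T cell genes 15 were lower, at a median of -0.19, and 8 of 18 were higher without WT 3 and WT 6, at a median of -0.13. Both lists hold Gzma, Gzmb and Ccl5, among others, so they are not separate results. On the slides shared by both groups, 8, 23, 1 and 3 of 27 NK and cytotoxic genes were higher in Atm. For the memory list these counts were 10, 14, 5 and 6 of 18. The only memory gene with an unadjusted p under 0.05 was higher in Atm: S100a6, a calcium-binding protein chosen after its values were seen, differed by 0.94 (SE 0.39).

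**Figure D3:**
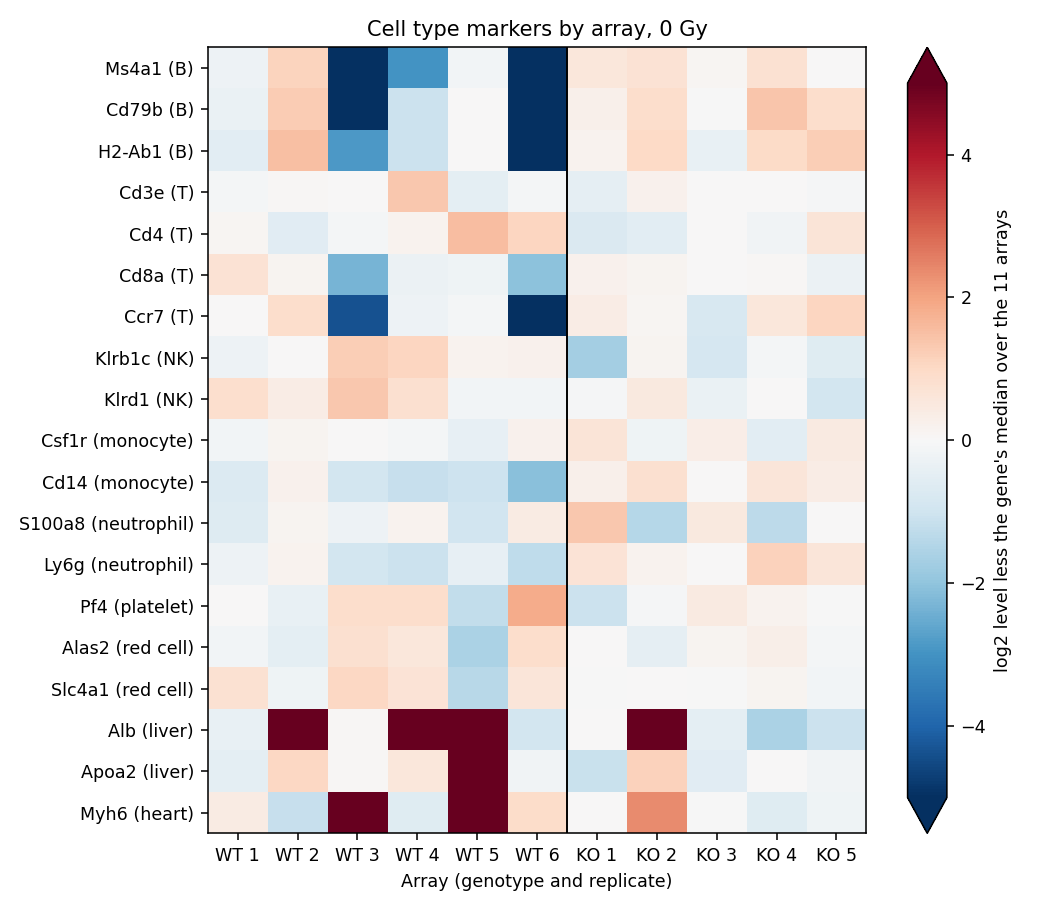
Each cell is the level of 1 cell type marker (rows) on 1 of the 11 arrays (columns, 6 WT then 5 Atm), in log2 units less the median of that gene over the 11 arrays. The B cell rows are lowest (dark blue) on WT 3 and WT 6, the liver gene Alb is high on WT 2, WT 4, WT 5 and Atm 2, and Myh6 of the heart is high on WT 3 and WT 5.

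Monocyte transcripts lay somewhat higher in Atm blood on the mean. Of 29 monocyte markers 22 were higher in Atm, with a median of 0.48, and Cd14, Fcgr4, Cybb and Pld4 had an unadjusted p under 0.05. The median was 0.36 without WT 3 and WT 6, 0.21 without Atm 1 and 0.24 without WT 6 alone. On the slide of Atm 4 and WT 3 it was -0.23, with 12 of 29 higher. Csf1r, the receptor for the monocyte growth factor M-CSF, was at 4.71 to 5.36 in WT (median 5.08) and at 5.76, 4.92, 5.47, 4.62 and 5.58 in Atm, a difference of 0.19 (SE 0.34). Cd14, the coreceptor for bacterial lipopolysaccharide, was, like the other 3, chosen after its values were seen. It was at -0.31, 0.59, -0.53, -0.78, -0.65 and -1.69 in WT and at 0.63, 1.18, 0.38, 0.98 and 0.75 in Atm. WT 2 alone reached into the Atm range, and the difference was 1.35 (SE 0.52), or 1.07 (SE 0.58) without WT 3 and WT 6.

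Neutrophil genes varied from mouse to mouse in both groups. Of 30 mature neutrophil markers 25 were higher in Atm, 2 at an unadjusted p under 0.05 (Ly6g among them), with a median of 0.27, or 0.42 without WT 3 and WT 6. The array medians were 1.75, 2.03, 1.47, 2.28, 1.06 and 2.46 in WT and 3.55, 1.72, 2.75, 1.31 and 2.31 in Atm. Atm 1 and Atm 3 were the highest of the 11 arrays, and Atm 2 and Atm 4 lay among the WT arrays. Without Atm 1 the list median was -0.07. S100a8, a subunit of the neutrophil protein calprotectin, differed by 0.03 (SE 0.59). Ly6g, the neutrophil surface antigen, was at -2.42 to -0.95 in WT (median -1.81) and at -0.46, -0.98, -1.15, -0.01 and -0.53 in Atm. Atm 2 and Atm 3 lay within the WT range, with a difference of 1.14 (SE 0.48), and the alternatives gave 0.20 to 1.43. Neutrophil granule and precursor genes, 13 tested, had a median of -0.09, or 0.18 without WT 3 and WT 6 (9 of 13 higher), and its sign changed in 18 of 33 alternatives.

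Platelet and red cell transcripts were abundant on all 11 arrays. The 32 platelet genes had a median of -0.17, with 8 higher in Atm, and a median of 0.23 with 26 higher once WT 3 and WT 6 were left out. Pf4, the platelet chemokine platelet factor 4, was at 8.55 to 11.66 in WT (median 10.24) and at 8.72, 9.72, 10.25, 9.99 and 9.78 in Atm. The WT range enclosed the Atm arrays, with a difference of -0.45 (SE 0.49). The 50 erythroid genes had a median of -0.17 (8 higher) on all arrays and of 0.09 (35 higher) without WT 3 and WT 6. Alas2, the erythroid enzyme that starts haem synthesis, was at 10.91 to 13.38 in WT (median 12.73) and at 12.50, 12.04, 12.65, 12.80 and 12.39 in Atm, a difference of -0.03 (SE 0.39). The RNA had been depleted of globin transcripts, and the 9 tested globin genes had a median difference of -0.11 (1 higher), or 0.31 (7 higher) without WT 3 and WT 6.

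Interferon-stimulated genes were compared because unrepaired DNA can trigger interferon through the STING pathway. Of 43 tested, 35 were higher in Atm, with a median of 0.46, but only Oas2, Phf11d, Ly6a and Ly6e had an unadjusted p under 0.05, and these were chosen after their values were seen. The array medians were 0.43, 0.60, 0.60, 0.20, 0.60 and -0.18 in WT and 1.83, 1.36, 0.27, 0.68 and 0.26 in Atm. Atm 1 and Atm 2 stood highest, Atm 4 just above the WT range, and Atm 3 and Atm 5 within it. Without WT 3 and WT 6 the median was 0.44, with 40 of 43 genes higher. Oas2, Phf11d, Ly6a and Ly6e differed by 1.99, 1.33, 2.06 and 1.18 with these arrays. Without them the differences were 1.93, 0.79, 0.88 and 0.65, and of these genes only Oas2 kept an unadjusted p under 0.05. On the slides shared by both groups the list median was 0.74, 0.66, -0.12 and 0.43. With normexp background correction the list median was 0.18, with 41 of 43 genes higher.

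The brightest and best known members of the list did not all follow its median. Isg20 and Rsad2, which are also on the erythroid list, differed by -0.12 and -0.25, and Ifit1 by 0.10. Isg15, a ubiquitin-like interferon response protein, was at 8.32, 7.30, 9.04, 8.40, 6.51 and 7.94 in WT and at 8.33, 7.72, 7.76, 8.17 and 6.79 in Atm, a difference of -0.16 (SE 0.52). Irf7, the factor that amplifies type I interferon, was at 3.09, 1.48, 5.03, 2.05, 0.66 and 3.05 in WT and at 4.26, 2.94, 2.85, 2.72 and 2.53 in Atm. WT 3 was the highest of all 11 arrays, and the difference of 0.50 (SE 0.55) was 1.24 (SE 0.51) without WT 3 and WT 6. Oas2, a sensor of double-stranded RNA and a dimmer member, was at -1.19, -0.21, 0.15, -2.31, -0.47 and -2.61 in WT and at 2.40, 1.36, -0.11, 0.61 and 0.18 in Atm. Only Atm 3 fell within the WT range, with a difference of 1.99 (SE 0.80). Interferon-inducible GTPases (14 tested, median 0.14) and genes of cytosolic DNA and STING sensing (13 tested, median 0.05) lay closer to 0.

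Stress and activation genes differed by small amounts at the list level. NF-kB cytokines and feedback genes had a median of 0.23 (13 of 14 higher), immediate early genes one of 0.25 (12 of 17), and heat shock and unfolded protein response genes one of 0.35 (20 of 24). Without WT 3 and WT 6 the last of these was 0.11 (18 of 24), and the others were 0.26 (11 of 14) and 0.32 (16 of 17). Atf3, a stress-induced transcription factor chosen after its values were seen, was at -1.11, -0.42, -0.81, -3.09, -1.94 and -1.24 in WT and at -0.54, -0.40, -0.34, 0.21 and -0.49 in Atm. WT 2 lay among the Atm arrays and the other WT arrays below them, with a difference of 1.12 (SE 0.38, unadjusted p = 0.00635 from limma). Hspa1a, an inducible HSP70 chaperone also chosen after its values were seen, was well above background on 1 WT and 4 Atm arrays, and it too was tested only because of the unirradiated Atm arrays. It differed by 1.67 (SE 0.62), with WT 5 far below the rest at -5.37. Proteasome and ribosomal protein genes, with medians of 0.05 and 0.04, and proliferation genes, with 0.13, lay close to the median of all genes.

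Nuclear genes of the mitochondrial respiratory chain were lower in Atm on the mean without exception. All 62 tested had a negative difference, 7 at an unadjusted p under 0.05 (against 0.62% of all genes), with a median of -0.39. The array medians were 3.34, 3.58, 4.25, 3.76, 4.79 and 3.30 in WT and 3.46, 3.50, 3.47, 3.43 and 3.26 in Atm. WT 5 and WT 3 were highest, WT 1 and WT 6 lay within the Atm range, and WT 2 and WT 4 lay above it. WT 3 and WT 5 are also the arrays with bright heart muscle transcripts: the array medians of 10 tested heart and skeletal muscle genes were 3.94 and 0.75 there, against -2.10 to -0.86 on the 9 others. With WT 3 and WT 5 left out, the respiratory chain median was -0.14, with 23 of 62 genes higher in Atm. These are the highest WT arrays for the respiratory chain list itself, so leaving them out makes its median less negative in any case. Without WT 3 and WT 6 the respiratory chain median was -0.44, with 0 of 62 genes higher. A part of muscle transcripts in this list was not tested. On the slides shared by both groups the respiratory chain median was -0.02, -0.13, -0.76 and -0.51. The genes higher in Atm there were 30, 13, 1 and 27 of 62.

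Ndufb8, a subunit of respiratory complex I, was 1 of 2 genes in the whole comparison whose Atm levels all lay below every WT level. It was at 3.80, 3.77, 4.85, 3.76, 4.84 and 4.00 in WT and at 3.53, 3.63, 3.53, 3.43 and 3.18 in Atm, a difference of -0.71 (SE 0.33). WT 3 and WT 5 were again highest, and the other 4 WT arrays lay between 3.76 and 4.00. Cox6b1, a subunit of complex IV, differed by -0.86 (SE 0.33) and Ndufa4, a further respiratory chain subunit, by -0.77 (SE 0.31), both chosen after their values were seen. Among oxidative stress genes, 9 of 30 were higher at a median of -0.27, or -0.02 without WT 3 and WT 6. Hmox1, the haem-degrading enzyme induced by oxidative stress, was at 0.18 to 1.15 in WT (median 0.82) and at 2.16, 1.72, 1.09, 1.40 and 1.26 in Atm. Only Atm 3 fell within the WT range, with a difference of 0.80 (SE 0.35).

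Transcripts of liver and heart, organs near the site of the blood draw, varied more among the WT mice than any blood cell list, with SDs of the array medians of 4.1 and 2.27 against at most 1.55. Among the Atm mice the SD was 2.73 for liver and 0.36 for heart and muscle, the latter below that of several blood cell lists. The 18 tested hepatocyte genes had a median of -2.59, with 16 lower in Atm and none at an unadjusted p under 0.05. Alb, which encodes serum albumin, was at -2.27, 5.39, -1.83, 3.70, 9.67 and -2.80 in WT and at -1.88, 4.78, -2.36, -3.48 and -2.95 in Atm. WT 2, WT 4, WT 5 and Atm 2 were high and all other arrays low, and without these 4 the median of the hepatocyte list was -0.45. Myh6, the atrial myosin heavy chain, was at -0.52, -2.08, 6.87, -1.53, 4.1 and 0.01 in WT and at -0.92, 1.45, -0.93, -1.52 and -1.14 in Atm. The heart and muscle list had a median of -0.88, or 0.04 without WT 3 and WT 5. The part of these transcripts in the other results was not tested beyond the values with and without the arrays named.

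**Figure D4:**
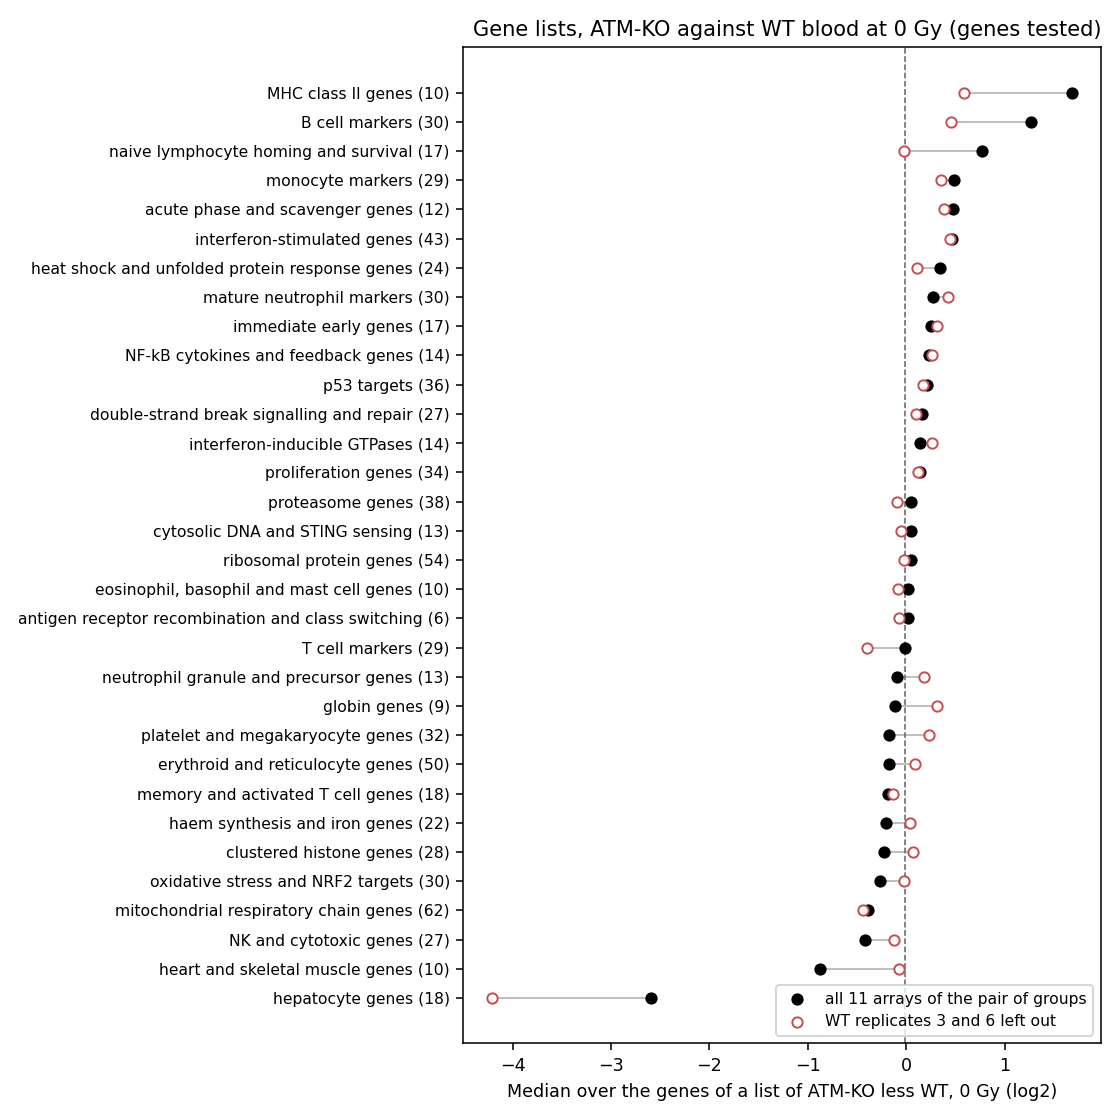
Each row is 1 of 32 gene lists, and each point its median Atm less WT difference (log2, x axis), with 1 symbol for all 11 arrays and another for the fit without WT 3 and WT 6. The B cell, MHC class II and naive lymphocyte medians of 1.26, 1.68 and 0.77 become 0.46, 0.59 and -0.02, while the interferon-stimulated median is 0.46 and 0.44.

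Groups that did not overlap at all were rare. The Atm levels lay wholly above the WT levels for 13 genes (0.0857%) and wholly below for 2 (0.0132%). The Atm-high gene with the smallest unadjusted p was 1810046K07Rik on chromosome 9. Gzmm, which encodes a granzyme of cytotoxic lymphocytes, was at -1.55, -1.41, -1.28, -1.66, -2.33 and -1.10 in WT and at -0.00, -0.77, -0.98, -0.69 and -0.48 in Atm. The difference was 0.97 (SE 0.35). Ralgds, an exchange factor for the small GTPase Ral, was at -1.15, -0.49, -1.37, -0.76, -1.14 and -0.65 in WT and at -0.29, 0.23, 0.27, 0.70 and -0.08 in Atm, a difference of 1.09 (SE 0.44). Espl1, which encodes separase, the protease that releases sister chromatids, was not well above background on any WT array and was so on 2 Atm arrays, where it was at least 1.25-fold higher. That fold is a bound, since no WT array had the gene well above background. The difference of the mean log2 levels was 1.22.

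The other genes of this kind with a symbol differed by less. Plekhb2, a pleckstrin homology domain protein of endosomes, differed by 0.95 (SE 0.41). Lrrc25, a leucine-rich repeat protein of myeloid cells, differed by 0.68 (SE 0.33), Vav3, a guanine nucleotide exchange factor, by 0.75 (SE 0.42), and Snn, stannin, by 0.69 (SE 0.49). Zfp710, a zinc finger gene, differed by 0.80 (SE 0.61) and Kcnk6, a potassium channel, by 0.57 (SE 0.55). The last 4 had unadjusted p-values from 0.0801 to 0.302 in limma, which takes a gene's spread from all 32 arrays. Of the remaining 3 Atm-high genes and 1 Atm-low gene without overlap, 3 probes carry no symbol and the fourth is the predicted gene Gm10134, named after its values were seen.

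The 2 genes with the smallest unadjusted p both had overlapping groups and were chosen after their values were seen. Asb2 was at -1.19, -0.05, -2.19, -0.97, -1.56 and -2.57 in WT and at -0.64, 1.17, -0.40, 1.01 and -0.13 in Atm, a difference of 1.62 (SE 0.47), while its other probe gave -0.19. Khdrbs3, an RNA-binding splicing regulator, was at -1.30, -2.12, -0.60, 0.21, -0.23 and -1.46 in WT and at -2.19, -1.89, -1.35, -3.63 and -3.41 in Atm, a difference of -1.58 (SE 0.46). Both lists of levels hold arrays near background, since Asb2 was well above it on 4 WT arrays and Khdrbs3 on 2 Atm arrays.

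Genes close to Atm on chromosome 9 were examined because a targeted line can keep flanking DNA of the embryonic stem cells it was made from. Within 10 Mb of the Atm probes, 179 genes were tested, with 93 higher in Atm, a median of 0.03 and 4 at an unadjusted p under 0.05, a share close to the 2.26% of all genes. All 4 were higher in Atm, whereas without WT 3 and WT 6 there were 2 higher and 2 lower. From 10 to 30 Mb away, 192 genes had a median of -0.05, and the 411 elsewhere on the chromosome had one of 0.05. All 3 medians lay close to that of all genes (-0.01).

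The neighbour within 10 Mb with the lowest unadjusted p was 1810046K07Rik, 2.15 Mb from the Atm probes at chr9:51098003-51098062 (mm9). It was at -2.41, -2.18, -2.60, -3.20, -2.08 and -2.91 in WT and at -0.92, -0.06, 0.18, 0.32 and 0.02 in Atm blood. Every Atm array lay above every WT array, and the probe was well above background on 5 of 5 Atm and 2 of 6 WT arrays, the pattern through which it came to be tested. The difference was 2.47 (SE 0.80, 95% interval 0.84 to 4.1, unadjusted p = 0.00421, adjusted p = 0.9996 in limma). With the spread taken from these 11 arrays only, the SE was 0.31 and the adjusted p 0.0316, as given above. On the 4 slides that held an array of each group it was 1.49, 2.12, 2.92 and 2.93 higher in Atm. Its low level on WT arrays was part of the pattern through which it came to be tested. The difference was 2.38 without WT 3 and WT 6. With normexp background correction, which pulls dim probes together, the difference was 0.46 (unadjusted p = 0.0591 in limma).

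B lymphocyte genes were among the other neighbours with an unadjusted p under 0.05. Pou2af1, a transcriptional coactivator of B cells 2.20 Mb from the Atm probes, was at 2.11, 3.67, -2.53, 1.97, 2.07 and -2.86 in WT and at 2.27, 3.36, 2.32, 3.16 and 3.36 in Atm. Its difference of 2.16 (SE 1.04) was 0.44 without WT 3 and WT 6. Cxcr5, the chemokine receptor that brings B cells into follicles, lies 8.93 Mb away and differed by 2.62 (SE 0.98), or by 1.06 without them. The fourth gene, 1700017B05Rik at 3.85 Mb, was at -2.76 to -1.12 in WT (median -1.85) and at -1.26, -0.84, -1.32, -0.79 and -0.51 in Atm, a difference of 1.02 (SE 0.36). These 3 genes were chosen after their values were seen.

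**Figure D5:**
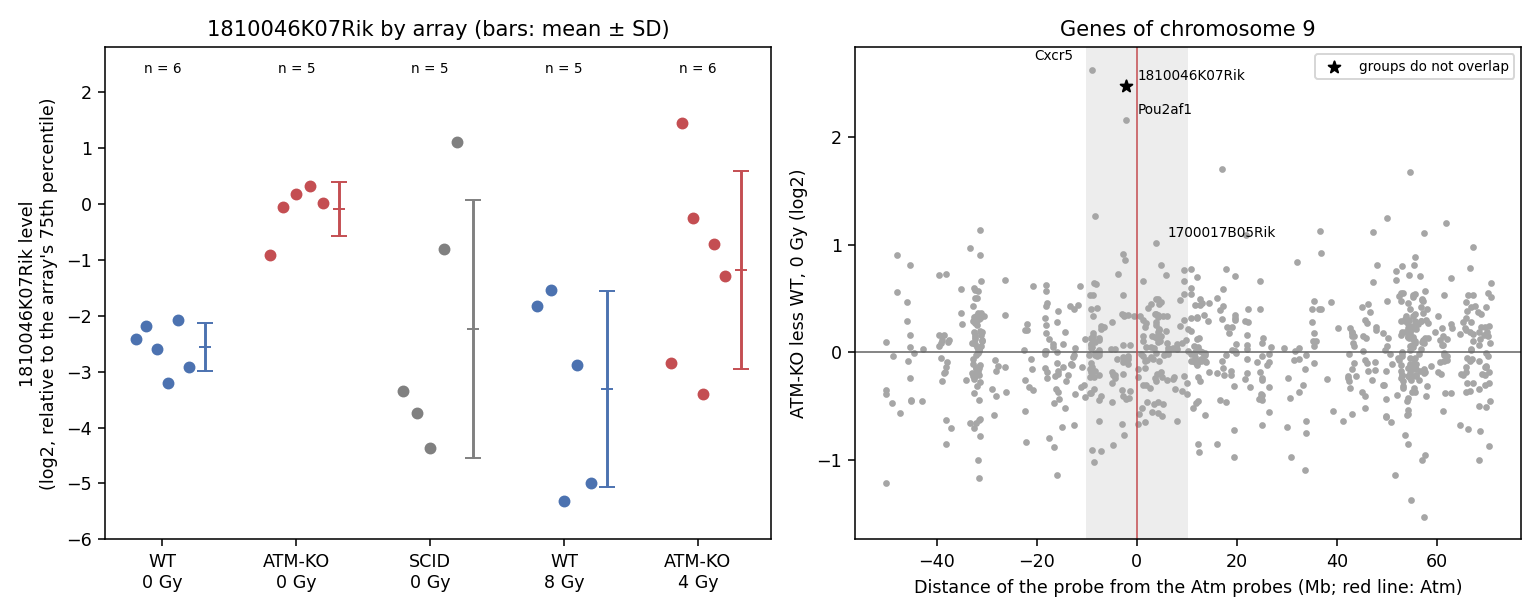
The left panel shows the level of 1810046K07Rik (log2 relative to the 75th percentile of the array) on each array of 5 groups, and the right panel the Atm less WT difference of chromosome 9 genes against their distance from the Atm probes in Mb. The unirradiated Atm arrays lie between -0.92 and 0.32 and the unirradiated WT arrays between -3.20 and -2.08, and the differences of genes within 10 Mb scatter around a median of 0.03.

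Irradiated mice of the same genotypes are other animals on other arrays, although Atm mice received 4 Gy and WT mice 8 Gy, so that genotype and dose cannot be told apart there. In Atm at 4 Gy less WT at 8 Gy, 1810046K07Rik differed by 2.13 (SE 0.80, unadjusted p = 0.0120, adjusted p = 0.261 in limma). Its levels were -2.85, 1.45, -0.25, -3.39, -0.72 and -1.29 in irradiated Atm mice and -1.82, -1.54, -5.31, -2.88 and -4.99 in irradiated WT mice, with overlap. It was well above background on 3 of these 6 and 2 of these 5 arrays. Unirradiated Scid arrays ranged from -4.36 to 1.11 for this gene, wider than either group described here. Ralgds differed by 1.45 between the irradiated groups (adjusted p = 0.127 in limma), and Gzmm by -0.14.

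Across the 342 genes with an unadjusted p under 0.05 at 0 Gy, 209 (61.1%) had the same sign in the irradiated comparison, against 43.9% of all genes. Of these 209, 46 also had an unadjusted p under 0.05 there, and 0 were called. Both comparisons take the spread of a gene from the same fit, so passing in both is not independent. The share of all genes with such a p is not given here, so the 46 have no baseline in the irradiated comparison. Of all 342, 1 was called there and with the opposite sign: Dppa2, named after its values were seen, differed by -1.22 at 0 Gy and by 2.69 after irradiation (adjusted p = 0.0277 in limma). Between the irradiated groups 82 genes (0.541%) were called, a count that ran from 0 to 14607 over the alternatives. Of those 82 genes 23 had the same sign at 0 Gy, and the 82 had a median difference of -0.12 at 0 Gy and of 2.11 after irradiation. B cell markers had a median difference of 1.26 at 0 Gy and 1.1 after irradiation, interferon-stimulated genes 0.46 and -0.66, and erythroid genes -0.17 and 1.24. Tests of the difference between these medians were not made.

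The Scid comparisons share arrays with the one described, so their values are set side by side only. In Atm less Scid blood at 0 Gy, 19 genes (0.125%) were called, all higher in Atm, and 9 of them were on the B cell list. The count of calls ran from 0 to 1639 over the alternatives. Cd79b was 6.89 higher in Atm than in Scid and 3.26 higher than in WT. Ms4a1 was 5.90 and 2.99 higher. Scid less WT gave no call with limma, with 499 genes (3.29%) at an unadjusted p under 0.05, and -3.63 for Cd79b. For NK and cytotoxic genes the median was -1.04 in Atm less Scid, -0.42 in Atm less WT and 0.42 in Scid less WT.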

How the data were processed

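Whole-blood RNA of 32 mice was hybridised with 1 dye to Agilent mouse arrays, 1 array per mouse. For each array the authors deposited a table of spots with a processed intensity, which Agilent Feature Extraction had corrected for background (version 11.5.1.1 per the file headers, 12.0.2 per the submitters' processing notes) without normalization between arrays. They also deposited log2 values, of which 98.1 to 99.1% per array matched the log2 processed intensity within 0.01 after an offset for the array. The column medians of the authors' log2 values ran from 5.51 to 6.44. Scale and direction follow from this match, and the choice of the offset is not given in the sources used here. These values were an alternative.

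Control and outlier spots were left out and replicate spots averaged (399 probes). The log2 processed intensity was set to the 75th percentile of its array. Of 39429 probes, 18373 were kept, since in 1 or more groups at least 4 arrays had them well above background. Probes were named through accession (27591), symbol (3493) or synonym (393) in the reference table, and 7952 kept the name in the scanner file. The kept probe of highest mean stood for a gene, giving 15162 genes. Positions are those of the probes in mm9, per the file headers. The means of the 6 groups of genotype and dose were fitted with limma 3.58.1 (lmFit, eBayes, R 4.3.3) on all 32 arrays, with two-sided p-values adjusted by Benjamini-Hochberg over all genes and calls at an adjusted p under 0.05. Where a group never had a gene well above background, its level is a bound and the fold is written "at least". Gene lists are described by counts and medians, without a test. The code was tested on simulated data.

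Named genes are those whose groups do not overlap (by smallest p, up to 10 per direction), the 2 brightest members of each list, fixed cell type markers and a fixed set looked up in any case, and the text names fewer. Some genes of these lists are not reported here by name. Genes outside this rule are said to have been picked with their values in view. The members, lists and rules were chosen with earlier results of these data known. Slide and scan day come from the files. Alternatives covered scaling, background correction, filters, probe choice, array weights, slide, scan day, array brightness, the replicate block and leaving out arrays.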

Additional observations from a re-analysis of the deposited data

Results flagged for a closer look

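In each group, the highest and lowest array of every list median and named gene were set against Dixon's critical value, which picks out about 1 group in 20 by chance. Of 208 groups tested 18 held such an array, 8 in WT and 10 in Atm. Values are log2 levels as in the report.

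Atm 3 stood below the other Atm arrays for the naive lymphocyte list (0.78, against 1.59 or more), the monocyte list (0.38) and Rad50 (-1.31), and above them for acute phase and scavenger genes (4.13). Atm 2 stood above the others for the hepatocyte list (4.39), Alb (4.78) and Myh6 (1.45). Atm 1 stood above the others for the zinc finger gene Zfp710 (3.24) and for Irf7 (4.26), and Atm 4 for Atf3 (0.21).

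Among WT arrays, WT 5 was low for the globin list (7.71), for S100a9, the partner of S100a8 in calprotectin (7.36), and for Hspa1a (-5.37), and high for Apoa2, a liver apolipoprotein (10.5), and for the 75th percentile of its signal (203). WT 3 was low for Il7r, the interleukin 7 receptor of lymphocytes (-2.13), and high for Ncr1, an NK cell receptor (0.0051). WT 4 was high for Cd3e (5.41). The causes were not tested.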

How the results depend on the processing

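In Atm against WT at 0 Gy no gene was called in 32 of 33 alternatives, and 1 gene, 1810046K07Rik, higher in Atm, in the fit on only the 11 arrays, a gene that met the filter on dim probes through the unirradiated Atm arrays alone. With the replicate block 0 genes were called and 272 had an unadjusted p under 0.05. After the group mean of each gene was subtracted, Atm and WT arrays of the same number correlated at 0.19, 0.45, 0.36, -0.17 and -0.23. Only Atm 1 correlated best with the WT array of its own number. These values do not settle whether the numbers pair mice. The 342 genes at an unadjusted p under 0.05 became 104 with spike-in scaling, 20 with normexp, 204 with the authors' values, 108 with probes well above background on all 11 arrays, 695 with array weights and 592 with brightness as a covariate. Leaving out 1 array gave 164 (WT 6) to 741 (WT 2). Alternatives chosen after seeing the data gave 170 without WT 3 and 6, 175 also without WT 8 Gy 3 and Scid 4, 82 without WT 3, 5 and 6, and 787 without WT 2, 4 and 5 and Atm 2.

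Since no gene was called, differences of genes and lists were compared as values, and their changes of sign were counted. List medians changed sign in 142 of 1155 values (23 of 35 lists or regions) and named genes in 162 of 2279 (24 of 70 genes). The median of the STING list was 0.30 with spike-in scaling and 0.32 with the authors' values, that of MHC class II 0.28 with normexp, and that of proliferation -0.14 without WT 2, 4 and 5 and Atm 2. With spike-in scaling the medians within 10 Mb of Atm, from 10 to 30 Mb and elsewhere on chromosome 9 were 0.27, 0.21 and 0.30. From 10 to 30 Mb it was also 0.071 with normexp, -0.17 without WT 2, 4 and 5 and Atm 2, and -0.15 to 0.011 on leaving out 1 array.

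The comparisons set beside it varied more. For Atm less Scid the 19 calls became 0 with the array median, percentile over probes detected on all arrays, spike-in or quantile scaling, normexp, the authors' values, no filter, probes well above background on all 11 arrays, the mean of a gene's probes, slide as a fixed block, brightness, or without WT 2, 4 and 5 and Atm 2. They became 4 with trend and robust spread, 1639 with array weights, 69 with the replicate block, 90 without WT 3 and 6, 402 also without WT 8 Gy 3 and Scid 4, 73 without WT 3, 5 and 6, 32 without WT 3 and 5, and 0 to 52 without 1 array. For Scid less WT the 0 calls became 23 with array weights, 23 without WT 3 and 6, 293 also without WT 8 Gy 3 and Scid 4, 2 without WT 3, 5 and 6, and 0 to 3 without 1 array. For Atm 4 Gy less WT 8 Gy the 82 calls became 0 with the array median or brightness, 169 with the percentile over detected probes, 14607 with spike-in scaling, 176 with quantile scaling, 7 with normexp, 258 with the authors' values, 7938 with no filter, 307 with array weights, 143 with scan day, 15 with the replicate block, 29 without WT 3 and 6, WT 8 Gy 3 and Scid 4, 140 without WT 3, 5 and 6, 150 without WT 3 and 5, and 75 to 151 without 1 array. The causes were not tested. Precision is limited by the number of arrays and, for dim probes, by signal over background.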
